A study of Mus musculus with 4 samples.

Results

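NF-kappaB subunits, their inhibitors and the cytokines tied to them were followed by 10 genes in mouse liver: the subunit genes Nfkb1, Nfkb2, Rela and Relb, the inhibitor genes Nfkbia and Tnfaip3, and the cytokine genes Il1a, Il1rn, Tnf and Il6. The members were taken by symbol, through the RefSeq accession that the array design gives each probe. Of these 10 genes, 9 had a probe that could be named this way, on 12 probes in all, among 31077 genes or accessions measured; Nfkb1 was not analysed here. All 9 passed the filter on dim probes. The livers came from male C57Bl/6 mice aged 3 months, all of which carried a mutant Wrn protein, an altered form of a RecQ helicase whose loss in people causes Werner syndrome. The labels name no allele. The vitamin C group had water with 0.4% vitamin C from weaning on (n = 4), and the untreated Wrn mutant group had none (n = 4). There was no wild-type group, so the comparison concerns vitamin C within Wrn mutants.

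NF-kappaB is a family of transcription factors that bind DNA as dimers. In resting cells IkB proteins hold the dimers in the cytoplasm. Signals from receptors for tumour necrosis factor, interleukin 1 or bacterial products lead to the destruction of IkB, and the dimers then enter the nucleus and switch on genes of inflammation and survival, among them the genes of their own inhibitors. In liver the pathway works in hepatocytes, which it protects from death by tumour necrosis factor, and in Kupffer cells, the resident macrophages, which are a main source of the cytokines.

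Promoter windows from RefSeq (assembly GRCm38.p6), from 250 bases before to 50 after a transcript start, were searched on both strands for the classical kappaB consensus of 10 bases. Of 8 members with a window in that table, 4 held at least 1 match: Nfkb2, Nfkbia, Tnfaip3 and Il6. Over the whole table, 5.14% of 27025 genes and 4.51% of 32851 windows held a match. The windows of these 4 genes are shown because they carry the letters that NF-kappaB dimers are known to bind, with every match in capitals. For Nfkb2, which has 3 windows, the one that starts earliest on the chromosome is given. Its windows 2 and 3, which overlap each other and are not shown, also held matches. These lay at -236 to -227 and 11 to 20 in window 2, and at -225 to -216 in window 3. Tnfaip3 has 2 windows, of which the one with matches is given, and the other held none.
Nfkb2, chr19:46304487-46304786, plus strand: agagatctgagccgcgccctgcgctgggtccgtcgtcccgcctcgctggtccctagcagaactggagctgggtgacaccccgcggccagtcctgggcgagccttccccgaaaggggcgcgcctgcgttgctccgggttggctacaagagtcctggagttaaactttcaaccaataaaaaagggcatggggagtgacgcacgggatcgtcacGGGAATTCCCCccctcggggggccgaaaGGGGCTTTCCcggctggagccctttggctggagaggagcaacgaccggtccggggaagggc
Nfkbia, chr12:55492598-55492897, minus strand: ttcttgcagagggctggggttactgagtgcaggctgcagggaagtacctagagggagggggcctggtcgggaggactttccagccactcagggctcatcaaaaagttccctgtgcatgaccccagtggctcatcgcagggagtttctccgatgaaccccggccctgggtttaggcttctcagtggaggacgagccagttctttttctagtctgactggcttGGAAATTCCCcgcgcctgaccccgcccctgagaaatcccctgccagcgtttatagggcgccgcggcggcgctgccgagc
Tnfaip3, chr10:19015361-19015660, minus strand: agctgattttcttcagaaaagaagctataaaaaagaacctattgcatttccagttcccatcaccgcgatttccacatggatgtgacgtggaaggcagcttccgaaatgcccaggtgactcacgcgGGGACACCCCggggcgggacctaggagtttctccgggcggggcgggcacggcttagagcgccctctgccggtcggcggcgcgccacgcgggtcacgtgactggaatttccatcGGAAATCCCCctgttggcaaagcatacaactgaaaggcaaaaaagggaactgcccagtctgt
Il6, chr5:30012864-30013163, plus strand: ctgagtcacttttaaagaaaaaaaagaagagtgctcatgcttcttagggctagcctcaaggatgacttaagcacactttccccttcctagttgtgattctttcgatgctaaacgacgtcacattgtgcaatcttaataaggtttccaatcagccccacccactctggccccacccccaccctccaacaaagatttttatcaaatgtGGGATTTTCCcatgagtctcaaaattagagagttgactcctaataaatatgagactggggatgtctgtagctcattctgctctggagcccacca
In Nfkbia the match lay at -29 to -20 relative to the start, and in Il6 it lay at -44 to -35. Tnfaip3 had a match at -12 to -3 and another at -125 to -116. In the Nfkb2 window shown, 3 overlapping matches on both strands formed the run that begins at -39, and a further match lay at -11 to -2. The windows of Rela, Il1a, Il1rn and Tnf held no match, which says only that these letters are not in these windows. A match is a description of the letters, and binding was not measured here.

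Each of 4 two-colour arrays held 1 treated liver in Cy3 and 1 untreated liver in Cy5, and ratios below are vitamin C over untreated on the log2 scale. With 0 arrays dye-swapped, an effect of the dye on a probe and an effect of vitamin C cannot be told apart, and the direction rests on the dyes named in the labels. Median spot signals were 380 to 530 in Cy3 and 813 to 962 in Cy5, and the 95th percentile of the 153 negative control spots of an array was at most 78 in Cy3 and 90 in Cy5. By the scanner software's flags, all 12 member probes were above background in both channels on all 4 arrays, the second Il1rn probe by a small margin, and none was saturated. Across genes, the ratios of replicates 1, 3 and 4 correlated at r = 0.601 to 0.785, whereas replicate 2 correlated with them at r = 0.020, -0.15 and -0.18 (31066 genes, which are not independent replicates). Each member is therefore given with and without replicate 2 where its call differs. Replicate 2 was singled out by these same ratios, so calls made without it are a description and not a separate test. In the test across all genes (limma, Benjamini-Hochberg adjustment), 0 of 31077 genes (0%) had an adjusted p under 0.05, so 0 of the 9 members passed. The smallest adjusted p was 0.144. Without replicate 2, 8764 genes passed, and without any other array 0 did.

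Among the subunits, Nfkb2 had the highest ratio, while Rela and Relb stayed near 0 or varied between pairs. Nfkb2 encodes p100, the precursor of p52, which pairs with RelB in the non-canonical pathway. Its log2 intensities were 9.40, 8.86, 9.14 and 9.29 in the vitamin C livers of replicates 1 to 4, against 9.01, 8.75, 8.72 and 8.67 in the untreated livers of the same pairs. The treated liver was the brighter in every pair, but the groups overlapped through the treated liver of replicate 2. The ratios were 0.39, 0.11, 0.42 and 0.63 on replicates 1 to 4, with a mean of 0.39 ± 0.21 (SD, n = 4; 95% interval 0.17 to 0.60), a fold of 1.31. The adjusted p over the whole table was 0.144 (limma), and Nfkb2 passed without replicate 2 (mean 0.48, adjusted p = 0.0107).

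Rela encodes p65, the subunit that carries the activation domain of the common p65:p50 dimer. Its brighter probe had log2 intensities of 12.82, 12.75, 12.66 and 12.65 in the vitamin C livers, against 12.72, 12.70, 12.72 and 12.73 in the untreated livers, so the groups overlapped. The ratios were 0.10, 0.046, -0.056 and -0.082, and their mean was 0.0018 ± 0.086 (SD, n = 4; 95% interval -0.13 to 0.13). The dimmer Rela probe is printed as 10 spots on each array and had ratios of 0.23, 0.15, 0.047 and -0.10, with a mean of 0.081 ± 0.14. Both probes thus had replicates 1 and 2 above 0 and replicate 4 below it.

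Relb encodes the partner of p52. Its ratios were -0.056, 0.012, 0.15 and 0.46 on replicates 1 to 4, with a mean of 0.14 ± 0.23 (SD, n = 4; 95% interval -0.089 to 0.37) and an adjusted p of 0.342 (limma). The mean rests on replicate 4, and was 0.036 without it. With Agilent's processed signals the mean of Relb was 0.31, beside 0.30 for Nfkb2, so the order of these subunits depended on the normalisation.

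Of the inhibitors, Nfkbia was brighter in the treated liver of every pair, and Tnfaip3 was slightly below 0, at a mean that moved with the normalisation. Nfkbia encodes IkB-alpha, which holds NF-kappaB dimers in the cytoplasm and is itself a target of NF-kappaB; the kappaB match of its window stands in capitals above. Its log2 intensities were 13.83, 13.68, 14.14 and 14.32 in the vitamin C livers, against 13.52, 13.53, 13.83 and 13.70 in the untreated livers. The groups overlapped only through the treated liver of replicate 2, which lay below the untreated livers of replicates 3 and 4. The ratios were 0.31, 0.15, 0.31 and 0.61, with a mean of 0.35 ± 0.19 (SD, n = 4; 95% interval 0.15 to 0.55), a fold of 1.27 that did not pass (adjusted p = 0.144, limma) and passed without replicate 2 (mean 0.41, adjusted p = 0.0196).

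Tnfaip3 encodes A20, an enzyme that edits ubiquitin chains and shuts off signalling downstream of tumour necrosis factor and Toll-like receptors, and it too is a known target of NF-kappaB. Its log2 intensities were 11.28, 11.46, 11.39 and 11.18 in the vitamin C livers and 11.36, 11.54, 11.46 and 11.19 in the untreated livers. The ratios were -0.082, -0.081, -0.071 and -0.012, all slightly below 0, with the smallest SD of the 9 members: the mean was -0.062 ± 0.033 (SD, n = 4; 95% interval -0.17 to 0.047; adjusted p = 0.379, limma). Among the genes within 0.5 log2 units of its intensity, 3833 in number, the median ratio was -0.029. The Tnfaip3 mean turned to 0.050 with Agilent's processed signals, and with median centring it was -0.22 and passed as lower (adjusted p = 0.0332, limma). With median centring 5281 of 31077 genes passed as lower.

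**Figure D1:**
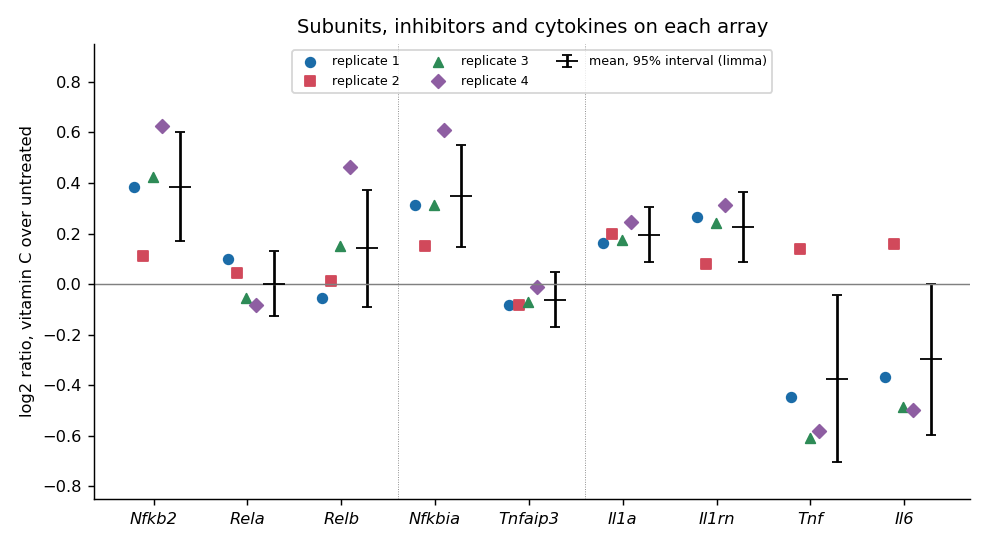
Log2 ratios of vitamin C over untreated for the 9 measured members (vertical axis), by gene from subunits to inhibitors to cytokines (horizontal axis), with 1 symbol for each of 4 arrays and a bar for the mean with limma's 95% interval. Nfkb2, Nfkbia, Il1a and Il1rn lie above 0 on all 4 arrays, and Tnf and Il6 lie below 0 on replicates 1, 3 and 4 and above it on replicate 2.

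The interleukin 1 pair, an agonist and its antagonist, had small ratios above 0 on every array. Il1a encodes interleukin 1 alpha, a cytokine released by damaged cells. Its log2 intensities were 9.54, 9.384, 9.40 and 9.49 in the vitamin C livers, against 9.380, 9.18, 9.22 and 9.24 in the untreated livers. All 4 treated livers lay above all 4 untreated livers, by a margin in the third decimal; Il1a was the 1 member of 9 of which this held, where 4.53% of all genes had every treated liver above and 2.54% had every treated liver below. The ratios of 0.16, 0.20, 0.17 and 0.25 were close to each other, with a mean of 0.20 ± 0.037 (SD, n = 4; 95% interval 0.085 to 0.31) and a fold of 1.14. The gene did not pass (adjusted p = 0.144, limma), and passed without replicate 2 (mean 0.19, adjusted p = 0.0364). Its unadjusted p was 0.0051 on all 4 arrays and 0.0084 without replicate 2 (limma). The call of Il1a thus changed through the adjustment over all genes and not through its own ratios. A dimmer probe of Il1a also lay above 0 on all 4 arrays, at 0.19, 0.32, 0.33 and 0.63, so its mean of 0.36 ± 0.19 was larger than that of the brighter probe. On the dimmer probe the groups overlapped, as the treated liver of replicate 2 (7.90) lay below the untreated liver of replicate 1 (8.06).

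Il1rn encodes the interleukin 1 receptor antagonist, which occupies the receptor without signalling. Its brighter probe had log2 intensities of 10.05, 9.70, 9.98 and 10.02 in the vitamin C livers, against 9.78, 9.62, 9.74 and 9.71 in the untreated livers, and the groups overlapped through the treated liver of replicate 2. The ratios were 0.27, 0.081, 0.24 and 0.31, with a mean of 0.22 ± 0.10 (SD, n = 4; 95% interval 0.087 to 0.36), a fold of 1.17. It did not pass (adjusted p = 0.144, limma), and passed without replicate 2 (mean 0.27, adjusted p = 0.0155). The second Il1rn probe gave 0.070, -0.017, 0.12 and -0.0045, with a mean of 0.043 ± 0.065. Its signals were 1.21 to 1.23 times the 95th percentile of the negative controls in the treated channel and 1.20 to 1.44 times in the untreated one, so this probe was close to background in both.

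Tnf and Il6, the cytokines for which the pathway is best known, had ratios on the other side of 0 from the remaining cytokines, except on replicate 2. Tnf encodes tumour necrosis factor, a classical inducer and target of NF-kappaB. Its log2 intensities were 9.83, 10.02, 9.56 and 9.50 in the vitamin C livers, against 10.28, 9.88, 10.17 and 10.08 in the untreated livers. The treated liver was the dimmer in pairs 1, 3 and 4 and the brighter in pair 2, and the groups overlapped. The ratios were -0.45, 0.14, -0.61 and -0.58, with a mean of -0.37 ± 0.35 (SD, n = 4; 95% interval -0.70 to -0.045), a fold of 0.771 that did not pass (adjusted p = 0.161, limma). Without replicate 2 the mean was -0.55 and the adjusted p was 0.00976.

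Il6 encodes interleukin 6, which drives the acute phase response of hepatocytes. Its log2 intensities were 8.98, 9.36, 8.97 and 9.22 in the vitamin C livers, against 9.35, 9.19, 9.45 and 9.71 in the untreated livers. The ratios were -0.37, 0.16, -0.49 and -0.50, with a mean of -0.30 ± 0.31 (SD, n = 4; 95% interval -0.60 to -0.00013), a fold of 0.813 that did not pass (adjusted p = 0.180, limma). Without replicate 2 the mean was -0.45 and the adjusted p was 0.00976. On each array Il6 and Tnf had the same sign.

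The array prints the probes of Tnf and Il6 as 10 spots each, which gives the spread within an array. For Tnf, 8 or 9 spots an array were usable, and the SD of their log2 ratios was 0.041 to 0.072. All of them were below 0 on replicates 1, 3 and 4, and all 8 were above 0 on replicate 2. For Il6, 9 or 10 spots an array had an SD of 0.072 to 0.17, again with every spot on the same side of 0 as its array's mean. Repeat spots share their livers, so they show technical spread only. The same order of signs (above 0 on replicate 2 and below 0 on the rest) was found in 18.6% of all genes and in 43.8% of 1008 receptor genes of smell, pheromones and taste. The array medians of these receptor genes were -0.14, 0.023, -0.15 and -0.17, and 98.0% of them were well above background in both channels on all 4 arrays. The signal of Tnf was 6.29 to 10.7 times the 95th percentile of negative controls in the treated channel and at least 16.9 times in the untreated one. For Il6 these values were 4.42 to 7.06 and 9.46 to 13.8. Whether such signals come from the named transcript was not tested.

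**Figure D2:**
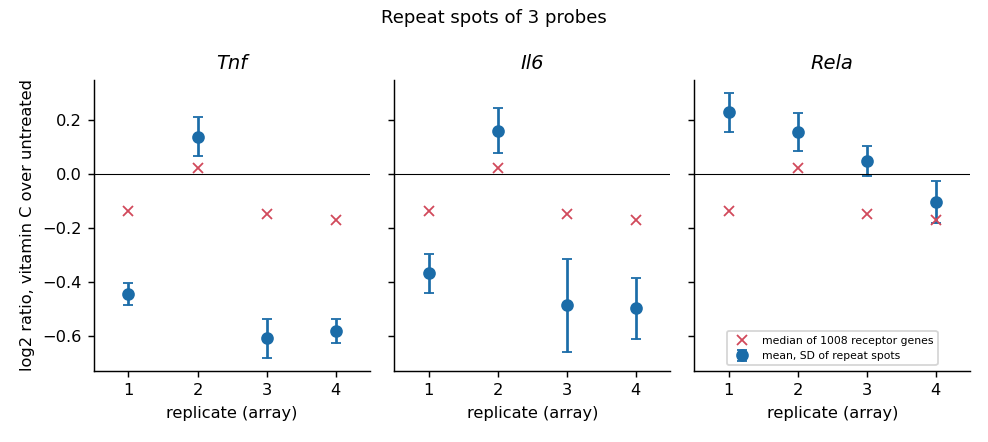
Log2 ratios of vitamin C over untreated (vertical axis) on each of 4 arrays (horizontal axis) for the probes of Tnf and Il6 and the dimmer probe of Rela, as the mean and SD of repeat spots, with the median of 1008 receptor genes of smell, pheromones and taste as crosses. The points of Tnf and Il6 are above 0 on replicate 2 and below it elsewhere, as are the crosses.

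**Figure D3:**
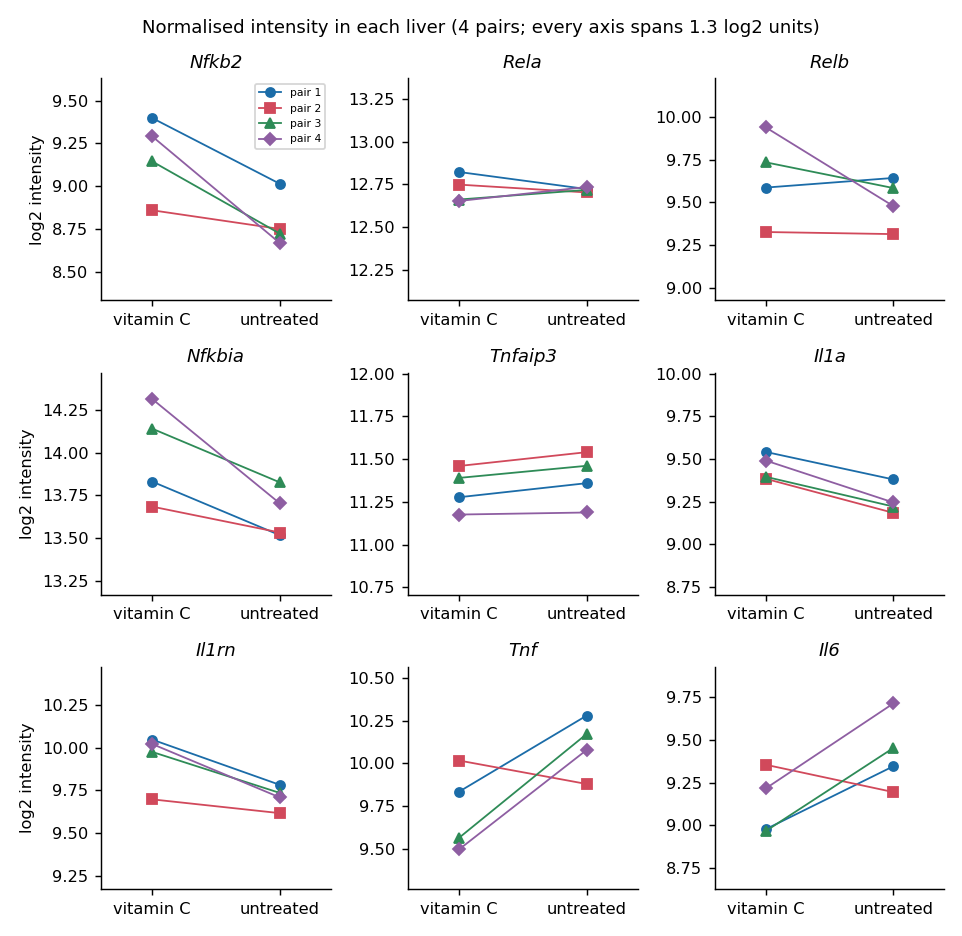
Normalised log2 intensity (vertical axis, spanning the same number of log2 units in every panel) of the 9 members in the vitamin C liver and the untreated liver of each pair (horizontal axis), with a line for each of 4 pairs. All 4 lines of Nfkb2, Nfkbia, Il1a and Il1rn are higher at the vitamin C end, and 3 of 4 lines of Tnf and Il6 are lower there.

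Of the 9 members, 6 had a mean above 0, against 46.1% of all genes, and the median of the 9 means was 0.14, beside -0.015 over all genes tested. That median was 0.036 without replicate 4 and 0.049 with median centring in place of loess. Nfkb2, Nfkbia, Il1a and Il1rn were above 0 on all 4 arrays, which makes 4 of 9 where 14.9% of all genes were; 1 of 9, Tnfaip3, was below 0 on all 4, where 16.1% of all genes were. At an unadjusted p under 0.05 (limma) the same 4 genes were higher, against 11.1% of all genes, and Tnf and Il6 were lower, against 16.5% of all genes. The array medians of the 9 members were 0.10, 0.11, 0.15 and 0.25 on replicates 1 to 4. Without replicate 2, 4 of the 9 members passed the test over all genes as higher, where 10.1% of all genes did, and 2 passed as lower, where 18.1% did. Against genes of like intensity, Nfkb2 and Nfkbia lay above the 95th percentile of their bin (0.21 and 0.29), and Tnf lay below the 5th percentile of its bin (-0.35). The 4 members with a kappaB match in their window did not share a direction: Nfkb2 and Nfkbia had means of 0.39 and 0.35, Tnfaip3 had -0.062 and Il6 had -0.30.

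**Figure D4:**
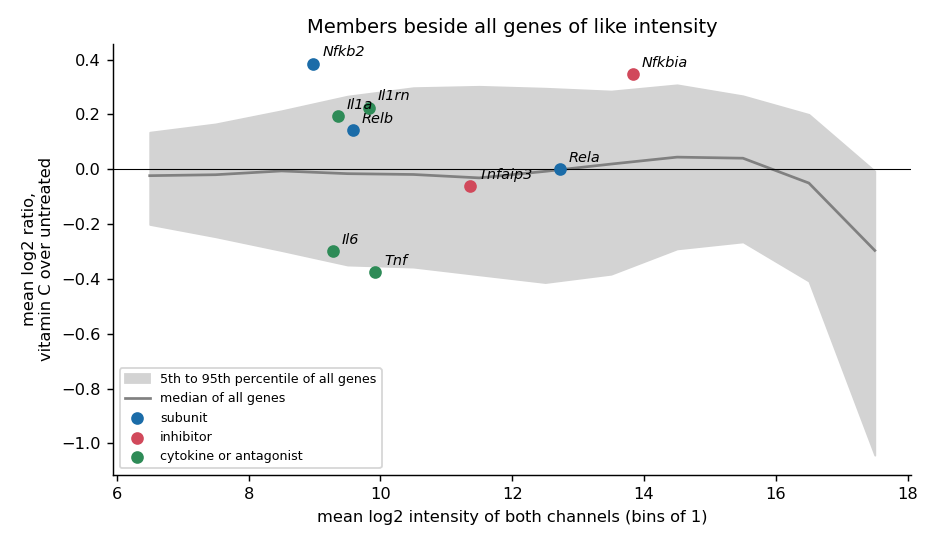
Mean log2 ratio of vitamin C over untreated (vertical axis) against mean log2 intensity of both channels (horizontal axis) for the 9 members, coloured by role, with the median of all genes as a line and their 5th to 95th percentiles as a band, in bins of 1 log2 unit. Nfkb2 and Nfkbia lie above the band, Tnf lies just below it and the other 6 members lie within it.

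The rest of the pathway was covered by 6 lists, in which 0 genes passed over all genes, as in the whole table. Negative regulators of the pathway had a median of 0.12 over 16 genes, with 5 higher and 0 lower at an unadjusted p under 0.05 (limma), against 11.1% and 16.5% of all genes. That median was 0.033 with median centring. The lowest p among them belonged to Pdlim2, which sends nuclear p65 to degradation (0.38 ± 0.15, SD, n = 4), and Commd1, which limits p65 in the nucleus (0.21 ± 0.054). Both were above 0 on all 4 arrays (adjusted p = 0.144 each). Kinases and adaptors of NF-kappaB activation had a median of 0.042 over 25 genes, with 4 higher and 0 lower, against the same 11.1% and 16.5%. That median turned to -0.094 with median centring. Ikbkg, the regulatory subunit of the IkB kinase, was at 0.23 ± 0.054, with 0.25, 0.29, 0.16 and 0.24 on replicates 1 to 4, and Tradd, the adaptor of the tumour necrosis factor receptor, was at 0.17 ± 0.088. The kinases that Ikbkg joins had means near 0, at 0.044 for Chuk and -0.056 for Ikbkb. Means were above 0 for 11 of the 16 negative regulators and for 17 of the 25 kinases and adaptors, against 46.1% of all genes.

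The remaining subunits and IkB proteins, 6 genes, had a median of 0.063. Nfkbib, a further IkB protein, was at -0.16 ± 0.094 and below 0 on all 4 arrays, the opposite side of 0 from Nfkbia, and Nfkbiz, a nuclear IkB protein, was at 0.14 ± 0.14. Receptors had a median of 0.024 over 16 genes, with 3 higher and 3 lower at an unadjusted p under 0.05 (limma), against 11.1% and 16.5% of all genes. That median turned to -0.051 with median centring. Ly96, the partner of the receptor for bacterial lipopolysaccharide, was at 0.25 ± 0.20, and Tlr9, a receptor for bacterial DNA, was at -0.30 ± 0.25 with the same signs by array as Tnf and Il6. Of the receptors for the member cytokines, Il1r1 was at -0.34, Il1r2 at -0.20, Il1rap at 0.051, Tnfrsf1a at 0.12, Tnfrsf1b at -0.11, Il6ra at 0.064 and Il6st at -0.11, none of which passed (adjusted p of 0.177 or more, limma).

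Other cytokines and chemokines had a median of 0.12 over 23 genes, with 9 higher and 1 lower at an unadjusted p under 0.05 (limma), against 11.1% and 16.5% of all genes. That median was 0.065 without replicate 3, 0.070 without replicate 4 and 0.23 with median centring. The lowest p belonged to Il12a, a chain of interleukin 12 (0.22 ± 0.13), and Ccl5, a chemokine that draws T cells (0.71 ± 0.56, with 0.22, 0.26, 1.01 and 1.35 on replicates 1 to 4). Other textbook targets had a median of 0.075 over 24 genes, with 2 higher and 2 lower, against 11.1% and 16.5% of all genes. It was 0.033 with median centring. Sod2, the mitochondrial superoxide dismutase, was at -0.26 ± 0.069 and below 0 on all 4 arrays, and Ier3, an early response gene, was at 0.24 ± 0.15 and above 0 on all 4. The log2 intensity of Sod2 lay in the bin from 16 to 17, where the median of all genes was -0.050.

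Markers of the cells that make or answer these cytokines moved between pairs as well, and in bulk liver fewer cells of a type and less RNA per cell cannot be told apart. Of 14 symbols listed as Kupffer cell and macrophage markers, 12 were measured, all of them well above background in both channels on all 4 arrays. Their array medians were -0.27, 0.32, 0.076 and 0.49, and their summed intensity was 65982 to 109852 in vitamin C livers, against 64546 to 90835 in untreated livers. The median of their gene means was 0.17, and 11 of the 12 means were above 0, against 46.1% of all genes. At an unadjusted p under 0.05 (limma), 3 were higher and 0 lower, against 11.1% and 16.5% of all genes. Of 13 T and NK cell markers, 10 were measured, with array medians of -0.043, 0.0090, -0.031 and 0.032 and summed intensities of 15357 to 17212 in vitamin C livers, against 16381 to 20356 in untreated livers. B cell markers had a median of 0.094 over 5 genes, neutrophil markers 0.011 over 6, sinusoidal endothelial markers 0.036 over 7, stellate cell markers 0.0090 over 6 and bile duct markers -0.061 over 5. All 6 measured hepatocyte markers were well above background on all 4 arrays, as the liver label implies. Their summed intensity was 616451 to 713353 in vitamin C livers, against 848510 to 905391 in untreated livers, without overlap. Such a sum weighs the brightest genes most, such as Alb (mean ratio -0.70 at a log2 intensity of 18.0). Sums of other genes of like intensity were not compared. Of the 6 hepatocyte markers, 2 had a mean above 0, Ttr at 0.11 and Hnf4a at 0.077. The median ratio of the 6 markers was -0.22, at a median log2 intensity of 17.1, where the median of all genes was -0.30. The part of these shifts in the members' ratios was not tested.

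**Figure D5:**
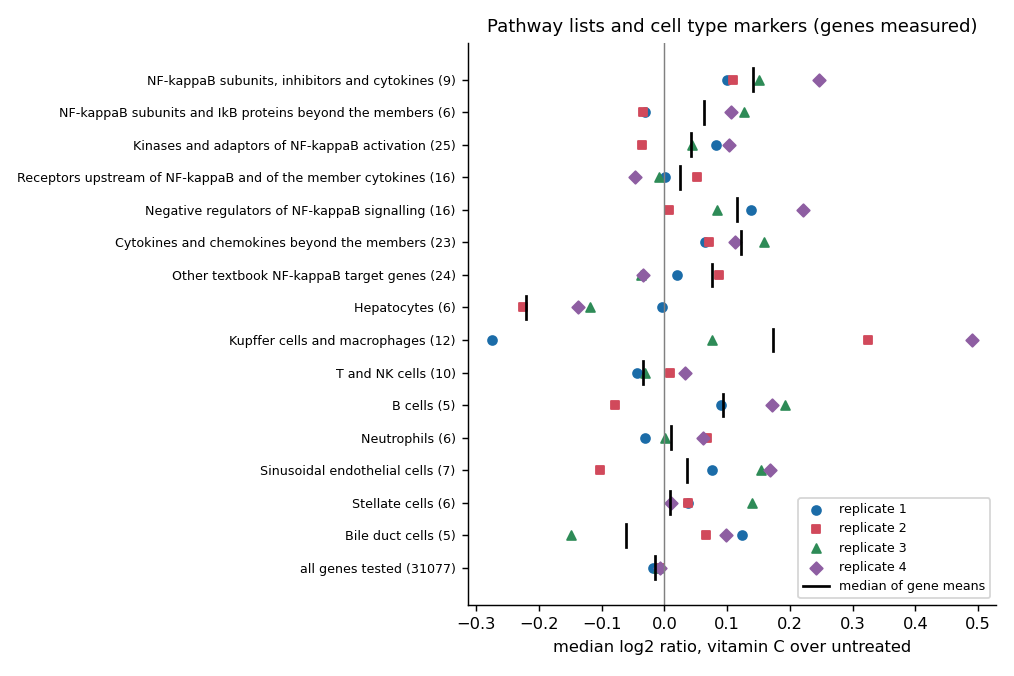
Median log2 ratio of vitamin C over untreated (horizontal axis) for the members, 6 pathway lists, 8 lists of cell type markers and all genes (vertical axis, number of genes measured in brackets), with a symbol for each of 4 arrays and a black bar for the median of the gene means. The members lie at 0.10 to 0.25 on the 4 arrays, and Kupffer cell markers spread from -0.27 to 0.49.

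Nfkbia was taken as the gene to which other genes were likened, over 4 arrays. Among 16860 named genes well above background in both channels on all arrays, the 3 with the smallest Euclidean distance between their log2 ratios and its own were Tgfb1 (distance 0.069), Tmem68 (0.083) and Mif (0.084). Tgfb1, which encodes transforming growth factor beta, had ratios of 0.26, 0.13, 0.32 and 0.65. With 4 points the likeness is a description only.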

How the data were processed

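Gene expression was measured on 4 two-colour Agilent mouse arrays, each with 1 vitamin C liver (Cy3) and 1 untreated liver (Cy5) of a Wrn mutant mouse. The authors deposited spot intensity values made with Feature Extraction 10.5.1.1 (Agilent), per the file headers. They also deposited a log2 table of these arrays; the submitters' processing notes name limma, and how that table was made is not given in the sources. That table correlated at r = 0.950 to 0.980 with log2 Cy5 over Cy3, so it runs as untreated over vitamin C; its medians were 0.0014 to 0.0050 and its exact scale is unknown. The direction used here is the opposite of that table's sign and follows the dye labels. The sample titles name the vitamin C liver before the untreated one, and whether they state a ratio is not given. Read as a ratio, that order would be the reverse of the table's direction by the dyes. All arrays lay on 1 slide and were scanned on 1 day, so no batch could be fitted.

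Median signals were corrected with normexp (offset 50) on median backgrounds, normalised by loess within arrays with control spots at weight 0, and turned to log2 Cy3 over Cy5. Spots flagged as outliers were left out and spots of a probe averaged. The brightest probe on average stood for a gene, which was tested where either channel of that probe exceeded background on 3 or more arrays. Levels per liver are intensities after a further Aquantile step. Of 41174 probes, 25097 carried an accession with 1 symbol in the RefSeq table of GRCm38.p6, whose build is not that of the array design, so gene coordinates are given for promoter windows only. Ratios were tested against 0 with limma 3.58.1 (lmFit and eBayes) in R 4.3.3, adjusted by Benjamini-Hochberg over all genes. The loess and limma steps were also run on simulated ratios with noise drawn independently for each array. That run held no dye effect and no discordant array, so it says nothing about either. An exact two-sided sign-flip test on 4 arrays cannot go below p = 0.125. Intervals are 95% limits of that model, and the number of arrays limits the precision; the labels call the pairs biological replicates. Genes named beside the members were the 2 with the lowest unadjusted p in each list among those with both channels above background on 3 or more arrays; the smell, pheromone and taste receptor genes, Chuk, Ikbkb, the receptors of the member cytokines and the genes under other observations were added after their values were seen. The members, lists and tests were chosen with earlier results of these data known. Alternatives were another offset, Agilent's processed signals, median centring, scaling between arrays, 2 other filters, every probe or the mean of probes, the deposited table, a variance trend, array weights, separate-channel fits and each array left out; a running median over intensity was added after the data had been seen.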

Additional observations from a re-analysis of the deposited data

Results flagged for a closer look

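The ratio of Tnfaip3 on replicate 4, -0.012, lay far from the other arrays in relation to their spread (-0.082, -0.081 and -0.071). The whole range is small, and its levels in that pair were 11.18 in the vitamin C liver and 11.19 in the untreated liver. Among the 12 member probes it alone stood out in this way, and chance flags about 1 in 20 such groups of 4.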

How the results depend on the processing

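Over 18 alternatives, 140 of 162 member values kept their sign and their side of the threshold, 15 kept their sign and passed, and 7 changed sign. The mean of Rela, close to 0, turned to -0.095 with Agilent's processed signals, -0.12 with median centring, -0.0064 with array weights and -0.0051 once a running median was taken off. With an array left out it lay between -0.031 (without replicate 1) and 0.030 (without replicate 4), and it was -0.013 without replicate 2. That of Tnfaip3 turned to 0.050 with processed signals, and passed as lower with median centring (-0.22). The number of genes past the threshold, 0 as reported (8603 at an unadjusted p under 0.05), was 8764 without replicate 2 and 0 without any other array. It was 9632 with median centring, 9989 with array weights, which gave replicate 2 a weight of 0.325, and 889 in separate channels with the array as a random replicate block. It was 0 in separate channels with no replicate block. The replicate block changed no member's call. The median of the 9 members, 0.14, was 0.049 with median centring and 0.036 to 0.21 with an array left out, lowest without replicate 4. With array weights the 6 members that pass without replicate 2 also passed, where 3761 of 31077 genes passed as higher and 6228 as lower. With median centring Nfkb2 and Tnf did so, where 4351 of 31077 genes passed as higher and 5281 as lower. Medians of the 6 pathway lists moved by more than their spread over arrays in 6 of 108 values; kinases and receptors turned to -0.094 and -0.051 with median centring. The cause was not tested. Dim signal limits the second Il1rn probe most.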

Other observations

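Some genes around the pathway, chosen after their values were seen, were above 0 in every pair by amounts that varied widely. Cxcl9, a chemokine induced by interferon gamma that draws T cells, had ratios of 0.13, 0.79, 1.46 and 2.50 on replicates 1 to 4, the highest mean of the pathway lists (1.22, adjusted p = 0.146, limma). Cxcl10, of the same family, had 0.045, 0.61, 0.71 and 1.49, and Irf1, a transcription factor of the interferon response, had 0.093, 0.11, 0.50 and 0.79. Lymphocyte genes with a like order were Nkg7, a gene of cytotoxic granules (0.16, 0.42, 0.76 and 1.07), Cd3d, a chain of the T cell receptor complex (0.15, 0.28, 0.56 and 0.73), and Cd79b, a chain of the B cell receptor (mean 0.62). Of the 10 T and NK cell markers, 4 had a mean above 0; among the other 6, Cd8a, the co-receptor of cytotoxic T cells, was at -0.19, Gzma at -0.11, Gzmb at -0.088, Klrb1c at -0.051 and Cd2 at -0.018. The sixth, Cd3e, a chain of the same complex as Cd3d, had -0.36, 0.081, -0.33 and -0.37, the signs seen for Tnf and Il6. Il1b, from the list of other cytokines, was above 0 in every pair with another order, at 0.78, 0.93, 0.26 and 0.013 (mean 0.50). None of these genes passed over all genes.

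Replicate 2 was far above the other pairs for a few genes. Marco, a scavenger receptor of macrophages, had 2.19 on replicate 2 and -0.71, 0.053 and 0.41 on replicates 1, 3 and 4. Myc, a growth-promoting transcription factor, had 1.87 there and -0.46, -0.59 and -0.43 elsewhere, and Saa3, a serum amyloid gene of inflamed tissue, had 1.58 there and 0.0054, -0.13 and -0.45 elsewhere.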
